A study of Mus musculus with 6 samples.

Results

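The leukotriene genes examined here were 10 members, namely Alox5, Alox5ap, Lta4h, Ltc4s, Ltb4r1, Ltb4r2, Cysltr1, Cysltr2, Alox15 and Alox12, and each was read from every probe set of the array whose only gene symbol is that of the member. That rule found 9 of the genes, each with 1 probe set, among 19934 genes with values and 34499 probe sets with values. No probe set was found for Ltb4r2, the low-affinity leukotriene B4 receptor, which was therefore not analysed here. The arrays profiled mouse bone marrow cells of the Lin-c-Kit+Sca-1+ gate, which holds blood stem and early progenitor cells. There were 3 groups of 2 arrays. The group called HSC was made from wild-type C57BL/6 (B6) donor marrow and did not express BCR-ABL, the fusion kinase of chronic myeloid leukaemia. The group called LSC, for leukaemia stem cells, was made from wild-type donor marrow transduced with a BCR-ABL/GFP retrovirus. The Alox5-/- LSC group carried the same BCR-ABL/GFP retrovirus in marrow from Alox5-/- donors. All donors had received 5-fluorouracil, all recipients were B6 mice, the labels give an age of 8 weeks, and cells were sorted 14 days after transplantation. GFP alone was the control virus of the model. No group of Alox5-/- cells without BCR-ABL was analysed here. The titles call the arrays biological replicates without saying how many animals each held. The p-values therefore weigh group differences against the spread between these samples, pooled over the 3 groups.

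Leukotrienes are lipid signals made from arachidonic acid, mainly by myeloid cells. Arachidonate 5-lipoxygenase, the product of Alox5, works with its membrane partner FLAP, the product of Alox5ap, to make the unstable intermediate leukotriene A4. Lta4h turns that intermediate into the chemoattractant leukotriene B4, which acts on the receptors of Ltb4r1 and Ltb4r2, and Ltc4s joins it to glutathione to start the cysteinyl leukotrienes, which act on the receptors of Cysltr1 and Cysltr2. Alox15 and Alox12 encode lipoxygenases that oxidise arachidonic acid at other carbons. Alox5 in BCR-ABL stem cells was the subject of the study's design.

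The deposited value is a score whose unit and direction no source used here states, so it is not read as a level of RNA and no fold change is given. Scores ran from 0 to 62.1, and each array had 33.5% to 53.7% of its probe sets over 16, beyond log2 of a 16-bit scan. Genes that nearly every cell uses did not stand high on this scale. The 28 probe sets of 14 such genes, among them Actb, Eef2 and Rpl4, had medians of 10.1 to 13.6 on the 6 arrays, below the array medians of 14.5 to 16.4. Olfactory and vomeronasal receptor genes, which blood cells are not known for, had medians of 15.3 to 16.9. For 7 probe sets of stem and gate genes 0 passed correction in any comparison. Kit, a gene of the gate, scored 12.6 and 15.4 in HSC, 11.1 and 14.5 in LSC, and 11.5 and 10.5 in Alox5-/- LSC. Since the direction of the score is not known, these values do not check the cell type. Arrays of the same group correlated across probe sets at 0.794 to 0.824 and arrays of different groups at 0.782 to 0.839, so the groups did not stand apart as a whole. HSC replicate 2 had the highest score of the 6 arrays for 30.9% of all probe sets, and Alox5-/- LSC replicate 2 the lowest for 33.6%.

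The promoters of Alox5 and Ltb4r1 are shown, that of Alox5 because the design turns on its loss and that of Ltb4r1 because it was the member with the smallest p. Each is the 250 bases before the gene's start in RefSeq, build GRCm38.p6, on the gene's own strand, and capitals mark the GC box GGGCGG on either strand, the core letters bound by the factor Sp1. The window of Alox5 is chr6:116461179-116461428 on the minus strand, and that of Ltb4r1 is chr14:55765712-55765961 on the plus strand.
Alox5: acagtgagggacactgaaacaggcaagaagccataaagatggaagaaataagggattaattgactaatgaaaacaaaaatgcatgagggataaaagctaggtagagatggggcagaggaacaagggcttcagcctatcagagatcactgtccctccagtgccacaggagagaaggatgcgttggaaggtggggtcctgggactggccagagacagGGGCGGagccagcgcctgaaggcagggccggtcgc
Ltb4r1: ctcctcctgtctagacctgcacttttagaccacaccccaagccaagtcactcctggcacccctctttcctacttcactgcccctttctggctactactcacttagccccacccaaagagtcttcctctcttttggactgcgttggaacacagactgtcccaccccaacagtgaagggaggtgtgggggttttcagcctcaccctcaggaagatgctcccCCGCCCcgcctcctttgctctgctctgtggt
Alox5 held 1 match on its own strand, whose first base lies 35 bases before the start, and Ltb4r1 held 1 on the other strand, 31 bases before the start. The same letters occurred in 32.7% of 32851 windows of this length, so a match is common. RefSeq windows were found for 6 of the 10 members. Among those not shown, Alox12 held 2 matches, and Lta4h, Ltc4s and Cysltr2 held 0. No array value measures these sequences.

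The enzymes come first. Alox5 itself scored 12.6 and 19.9 in HSC, 13.2 and 14.2 in LSC, and 14.4 and 13.5 in Alox5-/- LSC. HSC replicate 2 alone was high, HSC replicate 1 was the lowest of all 6 arrays, and the 4 BCR-ABL arrays lay between them. The groups therefore overlapped in every comparison. Between Alox5-/- LSC and LSC its difference was 0.26 ± 2.39 (SE; limma adjusted p = 1), with a 95% interval of -5.59 to 6.12 score units. The Alox5 value did not set the cells lacking the gene apart from the wild-type LSC. A probe set may hold probes outside the deleted part, and the direction of the score is unknown, so this reading checks neither the genotype nor its label. LSC minus HSC was -2.54 ± 2.39, and leaving out HSC replicate 2 turned it to 1.10. The gap of 7.28 between the HSC replicates at Alox5 was matched or exceeded by 4.62% of all probe sets.

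Alox5ap, the FLAP gene, varied little. Its scores were 16.1 and 15.4 in HSC, 15.8 and 17.2 in LSC, and 16.5 and 15.2 in Alox5-/- LSC. All 3 groups overlapped, and the whole range of 2.06 over the 6 arrays was smaller than that of most probe sets, since 89.2% had a range at least as large. The 3 group differences lay between -0.67 and 0.77, each with an SE of 1.20.

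Lta4h, which makes leukotriene B4, scored 20.5 and 16.8 in HSC, 16.8 and 16.3 in LSC, and 18.8 and 14.4 in Alox5-/- LSC. Both LSC arrays lay below both HSC arrays, the nearest pair by a small margin, and the Alox5-/- LSC arrays straddled the LSC arrays. LSC minus HSC was -2.10 ± 1.95 (SE; limma adjusted p = 0.996), and it was -0.27 without HSC replicate 1. The Alox5-/- LSC mean differed from the LSC mean by 0.03 ± 1.95 (limma adjusted p = 1), with a 95% interval of -4.74 to 4.81. Lta4h and Alox5, which act one after the other, were thus each spread widely within HSC, but on different arrays: replicate 1 was high for Lta4h and replicate 2 for Alox5.

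Ltc4s, the entry enzyme of the cysteinyl branch, scored 12.2 and 10.2 in HSC, 10.1 and 10.6 in LSC, and 13.0 and 9.94 in Alox5-/- LSC. It was the only one of the 9 genes with a score below its array's median by more than 2 units on all 6 arrays. The groups overlapped in each comparison. The Alox5-/- LSC mean exceeded the LSC mean by 1.10 ± 1.50 (SE; limma adjusted p = 1), which turned to -0.43 without Alox5-/- LSC replicate 1.

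The leukotriene B4 receptor Ltb4r1 had the smallest p among the members. It scored 20.2 and 24.1 in HSC, 17.9 and 17.5 in LSC, and 16.7 and 19.6 in Alox5-/- LSC. Both HSC arrays were higher than all 4 BCR-ABL arrays, and the Alox5-/- LSC arrays lay on either side of the LSC arrays. The group means were 22.2 ± 2.75 (SD, n = 2) for HSC, 17.7 ± 0.30 for LSC and 18.1 ± 2.05 for Alox5-/- LSC. LSC minus HSC was -4.49 ± 1.76 (SE), with an unadjusted limma p of 0.0434 and an adjusted p of 0.993. It did not pass correction, and 6.02% of all probe sets differed by as much in either direction. For Alox5-/- LSC minus HSC it was -4.02 ± 1.76, with an unadjusted limma p of 0.0625 and an adjusted p of 0.773. Both differences use the same HSC arrays. Alox5-/- LSC minus LSC was 0.47 ± 1.76, with a 95% interval of -3.84 to 4.78.

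The Ltb4r1 difference moved with the arrays chosen. Without HSC replicate 2 LSC minus HSC was -2.55, without HSC replicate 1 it was -6.44, with an unadjusted limma p of 0.212 and 0.0163 respectively. Dropping LSC replicate 1 or LSC replicate 2 gave an unadjusted limma p of 0.111 or 0.138. Centring each array on its median gave -4.02 with an unadjusted limma p of 0.0655, and quantile normalization gave -3.98 with 0.0751. Granulocytes are known for Ltb4r1, although the lineage-negative gate is set to leave mature ones out, and the markers of these cells were read beside it. Their summed score over 11 probe sets was 162 and 174 in HSC, 156 and 157 in LSC, and 164 and 135 in Alox5-/- LSC. Such sums also carry the level of the whole array. Array medians were 15.6 and 16.4 in HSC, 15.5 and 15.5 in LSC, and 15.7 and 14.5 in Alox5-/- LSC. By summed score Alox5-/- LSC replicate 1 lay above the LSC arrays and replicate 2 below them. Ltb4r1 scored 16.7 in replicate 1 and 19.6 in replicate 2. With the direction of the score unknown, these orders do not show which cells were present. Of the 11, 0 passed correction in LSC against HSC and 1, with a lower score, had an unadjusted limma p under 0.05, beside 3.45% of all probe sets in that direction. The median difference of these markers was -0.47, beside -0.43 for all probe sets. None of the markers had a score of 0 on any array, as for all but 6 of the 34499 probe sets. Their part in the Ltb4r1 difference was not tested. In bulk samples such as these the number of cells of a type and the RNA per cell cannot be told apart, whichever way the score runs.

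**Figure D1:**
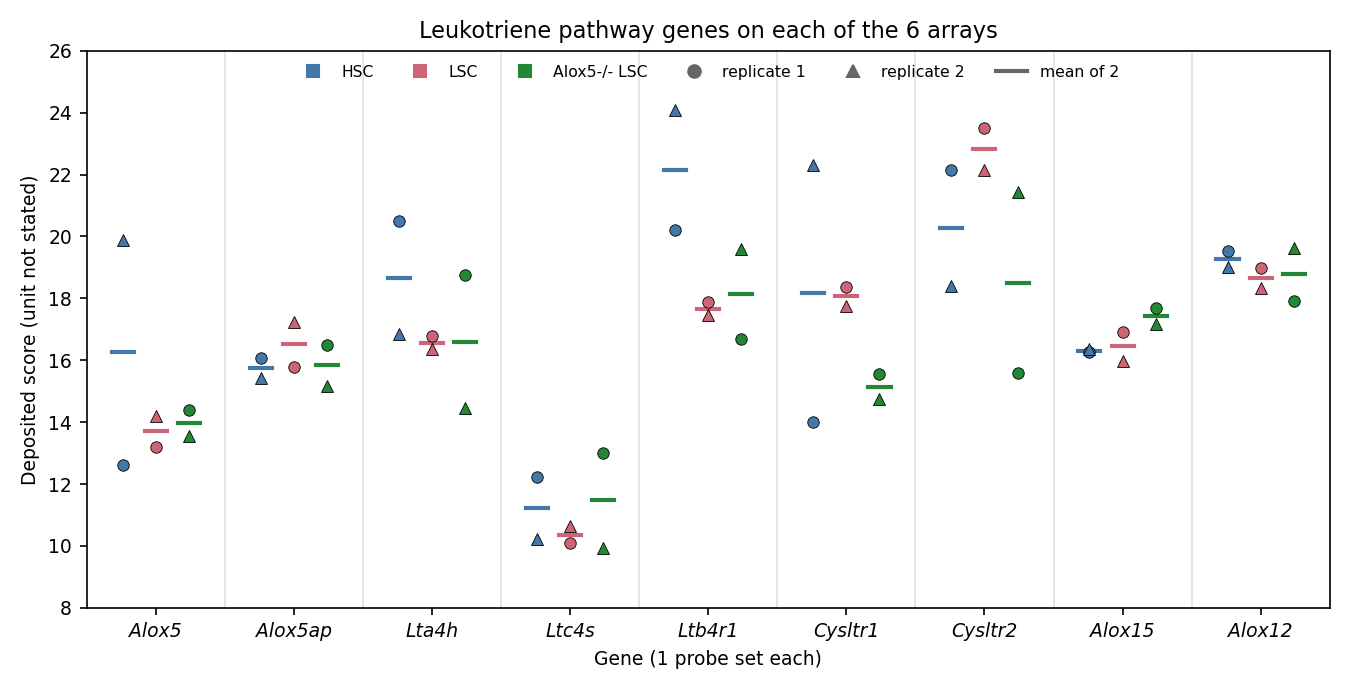
Deposited score (vertical axis, unit not stated) of 9 leukotriene pathway genes (horizontal axis, 1 probe set each) on the 6 arrays; circles are replicate 1, triangles replicate 2 and short lines the mean of 2 arrays. For Ltb4r1 both HSC points, at 20.2 and 24.1, lie above the other 4, whereas for Alox5 and Cysltr1 the 2 HSC points enclose all the others.

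The cysteinyl leukotriene receptors gave different patterns. Cysltr1, the receptor blocked by montelukast, scored 14.0 and 22.3 in HSC, 18.4 and 17.8 in LSC, and 15.5 and 14.8 in Alox5-/- LSC. The LSC pair and the Alox5-/- LSC pair were each tight and did not overlap, while the HSC pair spanned both. Group means were 18.1 ± 0.43 (SD, n = 2) in LSC, 15.1 ± 0.55 in Alox5-/- LSC and 18.2 ± 5.86 in HSC. The Alox5-/- LSC minus LSC difference was -2.92 ± 2.63 (SE), with an unadjusted limma p of 0.311 and an adjusted p of 1, and it stayed between -3.31 and -2.53 in the 4 fits that left out 1 array of either group. That SE pools the spread of all 3 groups, including the wide HSC pair, and a fit to the LSC and Alox5-/- LSC arrays alone gave an unadjusted limma p of 0.0528 and an adjusted p of 1. As many as 13.3% of all probe sets differed by as much. LSC minus HSC was -0.09 ± 2.63, with a 95% interval of -6.55 to 6.37, and was 4.05 without HSC replicate 2 and -4.23 without HSC replicate 1.

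Cysltr2, the second cysteinyl leukotriene receptor, scored 22.1 and 18.4 in HSC, 23.5 and 22.1 in LSC, and 15.6 and 21.4 in Alox5-/- LSC. Both Alox5-/- LSC arrays lay below both LSC arrays, replicate 2 by a small margin and replicate 1 far below. Alox5-/- LSC minus LSC was -4.31 ± 2.31 (SE), with an unadjusted limma p of 0.112 and an adjusted p of 1. It was -1.39 without Alox5-/- LSC replicate 1 and -7.24 without Alox5-/- LSC replicate 2, so its size rested on 1 array. The gap of 5.85 between the 2 Alox5-/- LSC arrays was matched or exceeded by 8.66% of all probe sets. LSC minus HSC was 2.55 ± 2.31 (limma adjusted p = 0.996), and the LSC and HSC arrays overlapped.

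The lipoxygenases Alox15 and Alox12 were the steadiest members. Alox15 scored 16.3 and 16.4 in HSC, 16.9 and 16.0 in LSC, and 17.7 and 17.2 in Alox5-/- LSC. Both Alox5-/- LSC arrays were above all other arrays, by 0.98 ± 1.09 (SE; limma adjusted p = 1) over the LSC mean and by 1.11 ± 1.09 (limma adjusted p = 0.870) over the HSC mean. These differences were smaller than their standard error or close to it, and 53.7% and 56% of all probe sets differed by as much in those comparisons. Alox12 scored 19.5 and 19.0 in HSC, 19.0 and 18.3 in LSC, and 17.9 and 19.6 in Alox5-/- LSC. Its range of 1.70 was the smallest of the 9 genes, and 94.2% of all probe sets had a range at least as large. LSC minus HSC was -0.61 ± 1.18 (limma adjusted p = 0.996), with LSC replicate 1 just under HSC replicate 2.

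**Figure D2:**
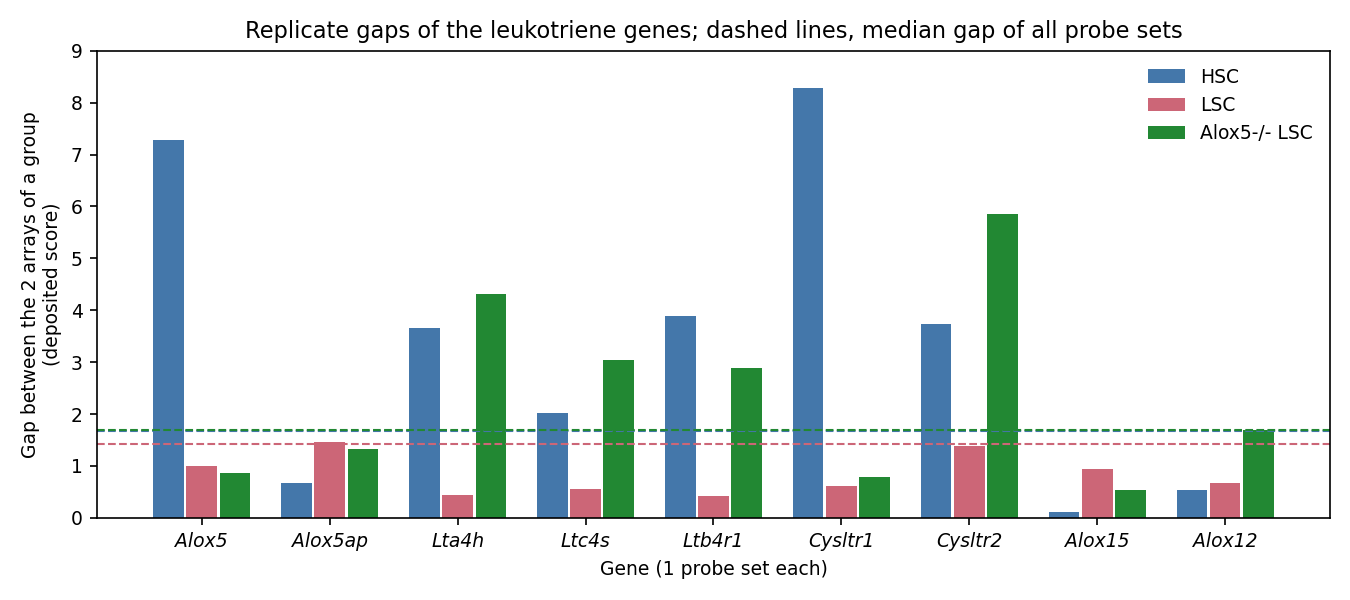
Absolute gap between the 2 arrays of a group, in deposited score (vertical axis), for each gene (horizontal axis) and group (colours); dashed lines give the median gap of all probe sets, 1.68 in HSC, 1.42 in LSC and 1.69 in Alox5-/- LSC. Bars of Alox5 and Cysltr1 reach 7.28 and 8.28 in HSC, and the LSC bars stay at or under 1.47.

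Replicate spread was uneven across the groups for these genes. In LSC the gaps between the replicates ran from 0.42 for Ltb4r1 to 1.47 for Alox5ap. In HSC they ran from 0.12 for Alox15 to 8.28 for Cysltr1. There the 5 largest gaps among the members were 8.28 (Cysltr1), 7.28 (Alox5), 3.88 (Ltb4r1), 3.74 (Cysltr2) and 3.66 (Lta4h). Gaps as large were found in 3.19%, 4.62%, 18.2%, 19.3% and 19.9% of all probe sets, in that order. These 5 were picked by size, so the shares are not a test of the members as a set. HSC replicate 2 was the highest array for 3 of the 9 genes, Alox5, Ltb4r1 and Cysltr1, beside 30.9% of all probe sets.

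In LSC against HSC, the comparison that addresses the effect of BCR-ABL, 0 of 9 members passed at a limma adjusted p under 0.05, and 0% of all probe sets did. At an unadjusted limma p under 0.05 there was 1 member, Ltb4r1, against 4.94% of all probe sets. The groups did not overlap for 3 members, Lta4h, Ltb4r1 and Alox12, all lower in LSC, beside 34.2% of all probe sets, 23% in that direction. The median difference of the members was -0.61 and that of all probe sets -0.43. Without HSC replicate 1 the differences were -6.18 for Alox5, -4.23 for Cysltr1 and -6.44 for Ltb4r1. Without HSC replicate 2 they were 1.10 for Alox5, 4.05 for Cysltr1 and -2.55 for Ltb4r1. The smallest adjusted p among all 34499 probe sets was 0.515.

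In Alox5-/- LSC against LSC, which addresses what the loss of Alox5 altered in BCR-ABL cells, 0 of 9 members passed at a limma adjusted p under 0.05, beside 0% of all probe sets. At an unadjusted limma p under 0.05 there were 0 members, against 3.96% of all probe sets, or 1365. Without Alox5-/- LSC replicate 2 there was 1, Cysltr2. The groups did not overlap for 3 members, with Cysltr1 and Cysltr2 lower and Alox15 higher in Alox5-/- LSC, beside 31.6% of all probe sets. The median difference was 0.12 for the members and -0.28 for all probe sets. In Alox5-/- LSC against HSC 0 of 9 members passed, with 0% of all probe sets, and 0 had an unadjusted limma p under 0.05, against 6.44% of all probe sets. The groups did not overlap for Ltb4r1 (lower) and Alox15 (higher), beside 35.7% of all probe sets. Without HSC replicate 1 the differences were -5.92 for Alox5, -5.96 for Ltb4r1 and -7.15 for Cysltr1. Without HSC replicate 2 they were 1.36 for Alox5, -2.08 for Ltb4r1 and 1.13 for Cysltr1. With 2 arrays against 2, an exact two-sided permutation test of a single gene cannot go below p = 0.333.

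**Figure D3:**
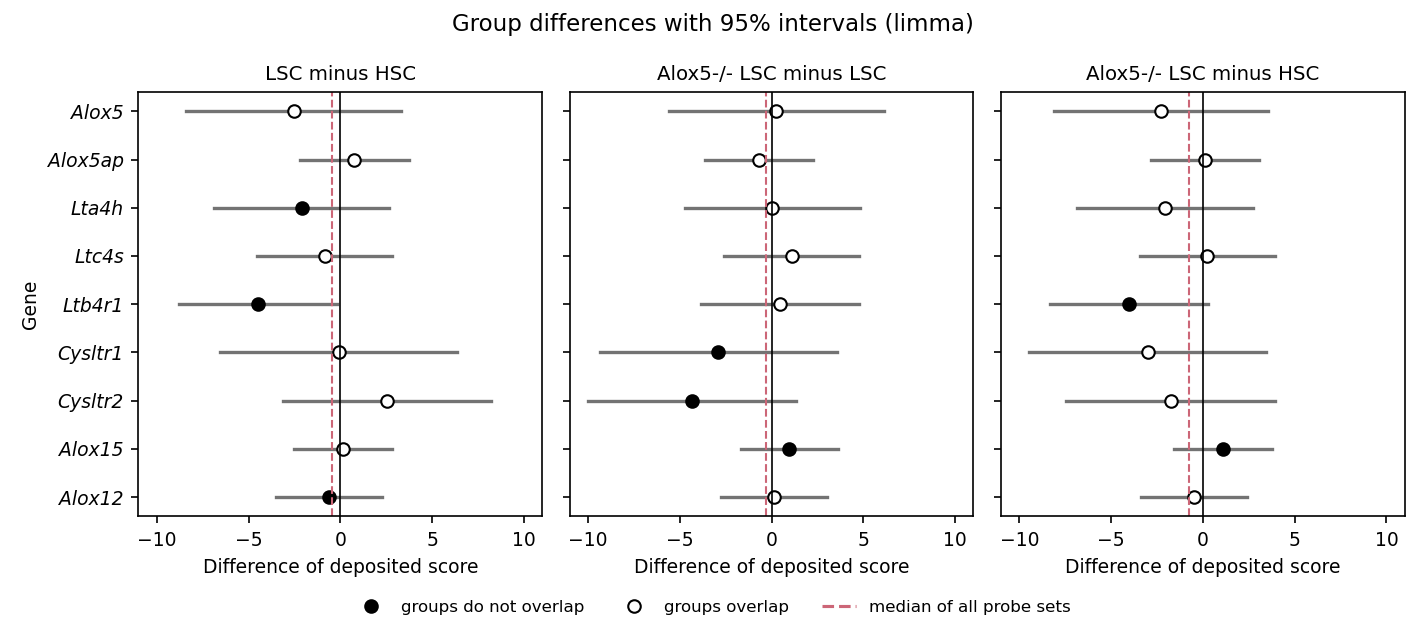
Difference of group means in deposited score (horizontal axis) with its 95% limma interval, for each gene (vertical axis) in the 3 comparisons; filled points mark groups that do not overlap and the dashed line the median of all probe sets. The interval of Ltb4r1 in LSC minus HSC, -8.80 to -0.18, is the only one that leaves out 0, before correction over all probe sets.

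The wider eicosanoid pathway, read from lists of 52 genes, had 48 measured genes and 50 probe sets, and 0 of 50 passed at a limma adjusted p under 0.05 in any of the 3 comparisons. At an unadjusted limma p under 0.05 there was 1 in LSC against HSC (2%, beside 4.94% of all), 1 in Alox5-/- LSC against LSC (2%, beside 3.96%) and 4 in Alox5-/- LSC against HSC (8%, beside 6.44%). All of them had lower scores in the first-named group, a direction that 3.45%, 2.73% and 5.32% of all probe sets took at that p. Ptgir, the prostacyclin receptor, scored 16.4 and 16.3 in HSC, 11.9 and 12.9 in LSC, and 13.6 and 13.3 in Alox5-/- LSC. Both HSC arrays of Ptgir were above all BCR-ABL arrays, as for Ltb4r1, but with close replicates. Its LSC minus HSC difference was -3.95 ± 1.09 (SE), with an unadjusted limma p of 0.0113 and an adjusted p of 0.993. For Alox5-/- LSC minus HSC it was -2.94 ± 1.09, with an unadjusted limma p of 0.0365 and an adjusted p of 0.769.

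Ptges3, a cochaperone that also has prostaglandin E synthase activity, scored 13.6 and 13.7 in HSC, 12.4 and 12.2 in LSC, and 8.41 and 10.3 in Alox5-/- LSC. The 3 groups did not overlap, and Alox5-/- LSC minus LSC was -2.95 ± 1.19 (SE), with an unadjusted limma p of 0.0477 and an adjusted p of 1. For Alox5-/- LSC minus HSC the Ptges3 difference was -4.32 ± 1.19, with an unadjusted limma p of 0.011 and an adjusted p of 0.769. Dpep2, a dipeptidase that can convert leukotriene D4 to leukotriene E4, scored 19.8 and 17.0 in HSC, 15.4 and 15.6 in LSC, and 15.2 and 13.2 in Alox5-/- LSC. Its Alox5-/- LSC minus HSC difference was -4.25 ± 1.45 (SE), with an unadjusted limma p of 0.0264 and an adjusted p of 0.769. Hpgds, the haematopoietic prostaglandin D synthase, scored 19.3 and 18.4 in HSC, 18.7 and 12.8 in LSC, and 13.5 and 14.0 in Alox5-/- LSC. Its Alox5-/- LSC minus HSC difference was -5.14 ± 2.04 (SE), with an unadjusted limma p of 0.0453 and an adjusted p of 0.769, while its LSC arrays lay far apart.

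By role, the lists had these median differences for LSC minus HSC, Alox5-/- LSC minus LSC and Alox5-/- LSC minus HSC in that order, beside -0.43, -0.28 and -0.73 for all probe sets. Arachidonate release genes, the phospholipases upstream of Alox5, had -0.35, 0.84 and -0.21 over 6 probe sets. Genes of 5-lipoxygenase partners and of leukotriene export, conjugation and breakdown had 0.34, -0.25 and -0.55 over 15. The other lipoxygenases had 0.20, -0.68 and -0.45 over 4, and the other receptors of lipoxygenase products had -1.21, 0.28 and -0.75 over 5. Prostaglandin and thromboxane synthesis genes had -0.45, 0.17 and -0.17 over 11, and the prostaglandin and thromboxane receptors -0.90, 0.49 and -1.24 over 9.

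Markers of other blood cells were read beside these genes, and 0 passed at a limma adjusted p under 0.05 in any comparison. In LSC against HSC, an unadjusted limma p under 0.05 was found for 1 of 11 granulocyte, 3 of 9 monocyte and macrophage, 2 of 8 mast cell, basophil and eosinophil, 1 of 8 lymphoid and 0 of 8 erythroid and megakaryocyte probe sets, and 3 of 7 of the gate and stem list, beside 4.94% of all probe sets. These scored lower in LSC except for 1 of the 3 monocyte and macrophage and 2 of the 3 gate and stem probe sets. In Alox5-/- LSC against LSC the count was 0 in each of the 6 lists, beside 3.96% of all probe sets. In Alox5-/- LSC against HSC the counts were 1 granulocyte, 1 monocyte and macrophage, 2 mast cell, basophil and eosinophil, 1 lymphoid, 1 erythroid and megakaryocyte, and 3 gate and stem, beside 6.44% of all probe sets, and all but 2 of the gate and stem probe sets scored lower in Alox5-/- LSC. Mast cells and eosinophils are known sources of cysteinyl leukotrienes. Their 8 probe sets summed to 146 and 145 in HSC, 133 and 133 in LSC, and 150 and 123 in Alox5-/- LSC. Monocyte and macrophage markers summed to 148 and 168 in HSC, 153 and 157 in LSC, and 156 and 152 in Alox5-/- LSC. These sums carry the level of the whole array too, whose median was lowest in Alox5-/- LSC replicate 2 (14.5) and highest in HSC replicate 2 (16.4). The part of these cells in the values of the leukotriene genes was not tested.

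Among genes with a single symbol, leaving out unnamed gene models, Prl8a6, Slc9b2 and Nlrc5 most resembled Alox5 in score over the 6 arrays. Prl8a6 (Pearson r = 0.997) is a gene of the prolactin family and Slc9b2 (0.992) a sodium and proton exchanger. Nlrc5 (0.992) is a regulator of MHC class I genes. Each of the 3 genes was highest in HSC replicate 2, at 20.9, 18.9 and 18.4, and lowest in HSC replicate 1. An r of at least 0.99 was reached by 10 probe sets, 0.029% of the rest, and an r of at least 0.9 by 940, or 2.72%. Without HSC replicate 2 the same r were 0.962, 0.952 and 0.893, over 5 arrays that had also served to pick these genes. Among the members, Cysltr1 (r = 0.850) and Ltb4r1 (0.742) were nearest to Alox5 over the 6 arrays, and without HSC replicate 2 these values were 0.326 and -0.831.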

How the data were processed

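Total RNA (100 to 300 ng, per the labels' protocols) was amplified, biotin-labelled and hybridised to 6 Affymetrix whole-transcript arrays. What the authors deposited is a score for each probe set on each array. Affymetrix Expression Console 1.1 and RMA are named in the submitters' processing notes, but the deposited scores lie outside the range of log2 expression, and the step that produced them is not given in the sources used here. Values were missing on every array for 1058 of the 35557 probe sets. Genes were named from the platform's annotation, where 21789 probe sets had 1 symbol, 1621 had several and 12147 were not listed, and only single symbols were used.

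All 34499 probe sets with values entered a fit in R 4.3.3 (limma 3.58.1) to the scores as deposited, with a mean per group, 3 residual degrees of freedom and a prior variance that follows the mean. P-values are two-sided and adjusted by Benjamini-Hochberg over all probe sets (threshold 0.05). The script was tested on simulated normal values with the mean of each probe set and its spread after limma draws it toward the prior variance. There an added shift of 4 score units passed the adjusted threshold in 0% to 2% of 50 probe sets per comparison. A shift of 8 passed in 14% to 20%, and a shift of 16 in 84% to 96%. False calls made up 4.67% to 8.85% of calls. Simulated spreads are more alike than the measured ones, so these rates need not hold for a widely spread probe set such as that of Alox5. No count or depth exists for arrays, whose number limits precision. The members, gene lists and named-gene rule (all members, list genes at an unadjusted p under 0.05 in any comparison, Kit and Ly6a, and the 3 genes most like Alox5) were chosen with earlier results of these data known. Ly6a was not analysed here. Alternatives were other scalings, a log2(value + 1) scale, a replicate block, another filter, probe set choice or spread, and leaving out each array.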

Additional observations from a re-analysis of the deposited data

How the results depend on the processing

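In the main fit and under the 8 settings that kept all arrays, 0 probe sets passed at a limma adjusted p under 0.05. At an unadjusted limma p under 0.05 the main fit had 1704 in LSC minus HSC and 1365 in Alox5-/- LSC minus LSC. In Alox5-/- LSC minus HSC it had 2223. Of the 8 settings that kept all arrays, 5 change only the p and leave each difference as it was. Under the 3 that rescale the values, 75 of 81 member differences kept their sign. The exceptions were Cysltr1 in LSC minus HSC (0.38 after centring, 0.55 after quantile normalization, 0.027 on the log2(value + 1) scale), Alox12 in Alox5-/- LSC minus HSC (0.39 after centring, 0.45 after quantile normalization) and Lta4h in Alox5-/- LSC minus LSC (-0.0081 on the log2 scale). Ltb4r1 missed an unadjusted p of 0.05 in LSC minus HSC after centring and after quantile normalization, leaving 0 members. The filter at the 25th percentile left out Ltc4s. With 1 probe set per gene, fewer were tested, and the counts at an unadjusted p under 0.05 were 939, 678 and 1392.

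Leaving out 1 array changed the sign of 24 of 108 member differences. Where an arm kept 1 array, it was assumed to vary like the other groups. In LSC minus HSC Alox15 ran from -0.34 to 0.61 and Ltc4s from -1.86 to 0.16. Alox5 there ran from -6.18 to 1.10 and Cysltr1 from -4.23 to 4.05. In Alox5-/- LSC minus LSC Lta4h ran from -2.13 to 2.19, Ltc4s from -0.43 to 2.62 and Alox12 from -0.73 to 0.97. Ltb4r1 there ran from -0.97 to 1.92, Alox5ap from -1.40 to 0.066 and Alox5 from -0.24 to 0.76. In Alox5-/- LSC minus HSC Lta4h ran from -4.23 to 0.088, Ltc4s from -1.28 to 1.77 and Alox12 from -1.34 to 0.36. Cysltr2 there ran from -4.69 to 1.16 and Alox5ap from -0.56 to 0.76. Alox5 ran from -5.92 to 1.36 and Cysltr1 from -7.15 to 1.13. All probe sets at an unadjusted p under 0.05 numbered 2630 in LSC minus HSC without HSC replicate 1 and 2144 in Alox5-/- LSC minus LSC without Alox5-/- LSC replicate 2.

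The titles do not say whether the replicate numbers pair the arrays. The replicate differences of 2 groups correlated at -0.025, -0.0476 and -0.0405 across probe sets. Such values show no large shared shift, but they cannot tell whether the samples were paired. With a replicate block 0 probe sets passed in each comparison, and 1, 0 and 0 members had an unadjusted p under 0.05.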
